A study of Mus musculus with 12 samples.

Results

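Transcripts of interleukin (IL)-10, its receptor and the STAT3 response downstream were examined as 10 genes out of 55414 in whole-lung RNA-seq, taken by symbol from the gene name column of the deposited table. They were the ligand Il10, the receptor chains Il10ra and Il10rb, the kinases Jak1 and Tyk2, the transcription factor Stat3, and the response genes Socs3, Bcl3, Nfil3 and Sbno2. Lungs came from 12 mice on a C57BL/6J background, all of which received 50 µg of lipopolysaccharide (LPS) from Escherichia coli to induce acute lung injury (ALI) and were examined on day 4. In 6 IL-10 B-KO mice a floxed Il10 gene was combined with Mb1-Cre, a recombinase expressed from the Cd79a locus in the B cell lineage, and the other 6 mice were IL-10 B-WT, for which the labels say wild type and no further allele. The mice were matched for age and sex, the age is not given in the sources used here, and lungs without LPS were not analysed here. The lungs are called WT1 to WT6 and KO1 to KO6 after genotype and replicate number.

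IL-10 binds a receptor made of IL-10RA, the chain that confers specificity, and IL-10RB, which other cytokines of the family share. The kinases JAK1 and TYK2 on these chains then phosphorylate STAT3, which enters the nucleus and activates genes such as Socs3, a feedback inhibitor of cytokine receptors, and Bcl3, Nfil3 and Sbno2, which restrain inflammatory transcription in macrophages. In macrophages this response limits the production of cytokines and chemokines after LPS. STAT3 and the same response genes are also activated by IL-6 and other cytokines that signal through gp130, so that their transcript levels are not specific to IL-10.

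The promoters of 3 response genes are shown because Socs3 and Sbno2 followed each other most closely from lung to lung and Nfil3 had the lowest p between genotypes. The table of RefSeq promoters used here (GRCm38.p6) matched 7 of the 10 genes with 9 promoters, and Il10, Il10ra and Il10rb had no entry in it. Each line gives the 250 bases before the RefSeq start of transcription, 5′ to 3′ on the minus strand. By the GENCODE positions given below, the stretches of Socs3 and Sbno2 lie inside the gene, and that of Nfil3 does in part. Capitals mark a match to TTCNNNGAA, the palindromic core that STAT dimers bind, which reads the same on both strands.
Socs3 (chr11:117969367-117969616): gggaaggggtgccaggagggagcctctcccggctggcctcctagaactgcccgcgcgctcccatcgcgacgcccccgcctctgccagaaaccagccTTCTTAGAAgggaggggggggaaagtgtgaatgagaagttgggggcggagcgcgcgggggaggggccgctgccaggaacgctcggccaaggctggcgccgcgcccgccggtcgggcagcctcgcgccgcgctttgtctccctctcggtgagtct
Sbno2, promoter 1 (chr10:80102703-80102952): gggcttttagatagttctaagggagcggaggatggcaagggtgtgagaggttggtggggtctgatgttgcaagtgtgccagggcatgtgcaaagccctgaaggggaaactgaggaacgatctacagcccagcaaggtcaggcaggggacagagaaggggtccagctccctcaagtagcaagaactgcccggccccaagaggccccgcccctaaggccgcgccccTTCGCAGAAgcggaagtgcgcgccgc
Sbno2, promoter 2 (chr10:80101188-80101437): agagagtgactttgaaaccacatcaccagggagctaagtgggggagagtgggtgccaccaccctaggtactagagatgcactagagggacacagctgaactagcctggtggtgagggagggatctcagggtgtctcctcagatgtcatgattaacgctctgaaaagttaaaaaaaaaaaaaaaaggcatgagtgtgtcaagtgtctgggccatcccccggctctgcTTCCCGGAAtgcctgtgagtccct
Nfil3 (chr13:52981040-52981289): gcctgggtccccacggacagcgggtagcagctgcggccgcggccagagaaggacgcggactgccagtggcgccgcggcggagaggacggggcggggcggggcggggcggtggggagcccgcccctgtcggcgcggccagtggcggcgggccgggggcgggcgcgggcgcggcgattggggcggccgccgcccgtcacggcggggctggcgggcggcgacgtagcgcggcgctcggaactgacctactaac
The match in Socs3 was TTCTTAGAA, from 154 to 146 bases before the start. In Sbno2 the matches lay close to the start, as TTCGCAGAA from 26 to 18 bases before it in promoter 1 and as TTCCCGGAA from 24 to 16 bases before it in promoter 2. The promoters of Nfil3, Bcl3, Jak1, Stat3 and Tyk2 and the remaining promoter of Sbno2 did not hold these letters in the 250 bases. Of 32851 promoters of the same length, 7.02% had a match. Neither the NF-κB motif (7.25% of all promoters, found once, as GGGAAGTCCC in promoter 3 of Sbno2 from 179 to 170 bases before the start) nor TTACGTAA, the site that NFIL3 binds (0.113% of all promoters, found in none of the 9), was shared by the response genes. A match describes the letters alone and was not tested for binding.

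Before the members are compared, 3 lungs need to be set apart. WT1 had the highest summed TPM of neutrophil markers of its genotype (2516 TPM, where the median was 741 TPM) and of monocyte and interstitial macrophage markers (2610 TPM, median 560 TPM). KO2 had the lowest sums of its genotype for both lists, at 1045 TPM (median 3251 TPM) and 453 TPM (median 2243 TPM), and together with KO6 it was one of the IL-10 B-KO lungs with B cell transcripts: Cd79a was at 4.35 TPM in KO2 and 5.73 TPM in KO6, and at 0.05 TPM or less in the other 4. WT5 had 30.5% of its TPM in mitochondrial transcripts and 9.66% in globin, against at most 15.8% and 7.68% in the others, and its median TPM over the genes tested was 6.98, against 11.04 to 15.24 elsewhere. The comparisons of the members are therefore also given without WT1 and KO2, and their log2 differences also without WT5. Epithelial markers, with the club cell gene Scgb1a1 and the surfactant gene Sftpc at the highest mean levels, summed to at least 22476 TPM in every lung.

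Over the 12 lungs, 9 of the 10 genes reached 1 TPM in 6 or more libraries and were tested by limma on log2(TPM + 1) among 15148 genes. The mean of all 9 was higher in IL-10 B-KO lungs, a direction shared by 63.2% of the genes tested. None passed an adjusted p of 0.05 (limma, Benjamini-Hochberg, 0 of 9 members, against 0.522% of all genes), and 1 of 9, Nfil3, had an unadjusted p of at most 0.05 (12.5% of all genes, 6.83% in its direction and 5.71% in the other). No member separated the genotypes without overlap (1.02% of all genes did). The median log2 difference of the 9 was 0.57, against 0.10 over all genes tested. In whole tissue, a change in the number of cells that express a gene and a change in RNA per cell cannot be told apart.

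Il10 (ENSMUSG00000016529, chromosome 1, 131019845 to 131024974, plus strand), the ligand, was close to 0 in both genotypes. It was at 0.42, 0.88, 0.62, 0.05, 0 and 0.16 TPM in WT1 to WT6 and at 0.49, 0, 0.30, 0.15, 0.58 and 0.17 TPM in KO1 to KO6. The ranges overlapped fully, with WT5 and KO2 both at 0 and the highest value in WT2. The mean was 0.355 ± 0.348 TPM for IL-10 B-WT lungs against 0.282 ± 0.220 TPM for IL-10 B-KO lungs (SD, n = 6 per genotype, two-sided exact permutation p = 0.745). Without WT1 and KO2 it was 0.342 ± 0.388 and 0.338 ± 0.191 TPM (SD, n = 5 each, exact permutation p = 0.881). The deletion is limited to B cells and the sources used here do not say which exons are floxed, so that the level of the whole gene in whole lung does not check the knockout. Il10 did not pass the minimum TPM and was left out of the limma analysis.

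The receptor chains differed in how much they varied between lungs. Il10ra (ENSMUSG00000032089, chromosome 9, 45253837 to 45269149, minus strand), the chain found mainly on leukocytes, was at 54.7, 29.5, 34.4, 10.1, 5.15 and 16.7 TPM in WT1 to WT6 and at 48.6, 13.9, 32.5, 31.0, 55.9 and 32.2 TPM in KO1 to KO6. The highest lung had 10.9 times the level of the lowest, and WT1 lay among the highest IL-10 B-KO lungs. The means were 25.1 ± 18.3 and 35.7 ± 14.8 TPM (SD, n = 6 each), a log2 difference of 0.73 (standard error 0.49, limma adjusted p = 0.525).
Il10rb (ENSMUSG00000022969, chromosome 16, 91406164 to 91425834, plus strand), the shared chain that many cell types express, was at 98.2, 57.8, 67.7, 51.8, 40.3 and 59.1 TPM in WT1 to WT6 and at 86.4, 52.9, 96.2, 71.4, 86.8 and 82.0 TPM in KO1 to KO6. Its range over the lungs was 2.44 times, the narrowest of the members. In IL-10 B-KO mice 5 lungs of 6 were above every IL-10 B-WT lung but WT1, the exception being KO2. The means were 62.5 ± 19.7 and 79.3 ± 15.2 TPM (SD, n = 6 each), a log2 difference of 0.37 (standard error 0.21, limma adjusted p = 0.470). Within a lung, the log2 ratio of Il10ra to Il10rb was -1.58 ± 0.80 for IL-10 B-WT against -1.22 ± 0.46 for IL-10 B-KO mice (SD, n = 6 per genotype), a difference of 0.36 (exact permutation p = 0.355, adjusted over 3 ratios 0.532). The ratio of Il10ra to Ptprc, which encodes the pan-leukocyte antigen CD45, was -0.82 ± 0.57 and -0.80 ± 0.35 on the log2 scale (SD, n = 6 each, difference 0.02, exact permutation p = 0.976, adjusted 0.976), and this difference changed sign when single lungs were left out.

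The kinases stood closest together between genotypes. Jak1 (ENSMUSG00000028530, chromosome 4, 101152367 to 101265282, minus strand) ranged from 27.7 TPM through a median of 51.1 TPM to 78.5 TPM in IL-10 B-WT mice and from 44.7 TPM through 54.6 TPM to 73.2 TPM in IL-10 B-KO lungs. Every IL-10 B-KO value lay within the IL-10 B-WT range, and the log2 difference was 0.11 (standard error 0.24, 95% confidence interval -0.42 to 0.64, limma adjusted p = 0.855). Its direction turned with quantile normalization, with rescaling that leaves out mitochondrial, globin and immunoglobulin genes, and without WT5. Tyk2 (ENSMUSG00000032175, chromosome 9, 21104068 to 21131243, minus strand) lay between 6.79 and 28.5 TPM in IL-10 B-WT mice (median 19.2 TPM) and between 18.4 and 25.4 TPM in IL-10 B-KO mice (median 21.04 TPM). The IL-10 B-KO lungs thus fell within a 1.37-fold range inside a 4.2-fold range of IL-10 B-WT lungs, and the log2 difference was 0.32 (standard error 0.27, limma adjusted p = 0.606). Without WT5 that difference was 0.08.

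Stat3 (ENSMUSG00000004040, chromosome 11, 100885098 to 100939540, minus strand), the transcription factor of the pathway and itself a STAT3 target, was at 152, 85.9, 66.6, 48.2, 29.3 and 53.0 TPM in WT1 to WT6 and at 63.7, 61.6, 102.8, 69.2, 123 and 78.0 TPM in KO1 to KO6. WT1 was the highest of the 12 lungs, and WT4, WT5 and WT6 were below every IL-10 B-KO lung. The means were 72.5 ± 43.3 and 83.1 ± 24.7 TPM (SD, n = 6 each), a log2 difference of 0.33 (standard error 0.33, limma adjusted p = 0.662).

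**Figure D1:**
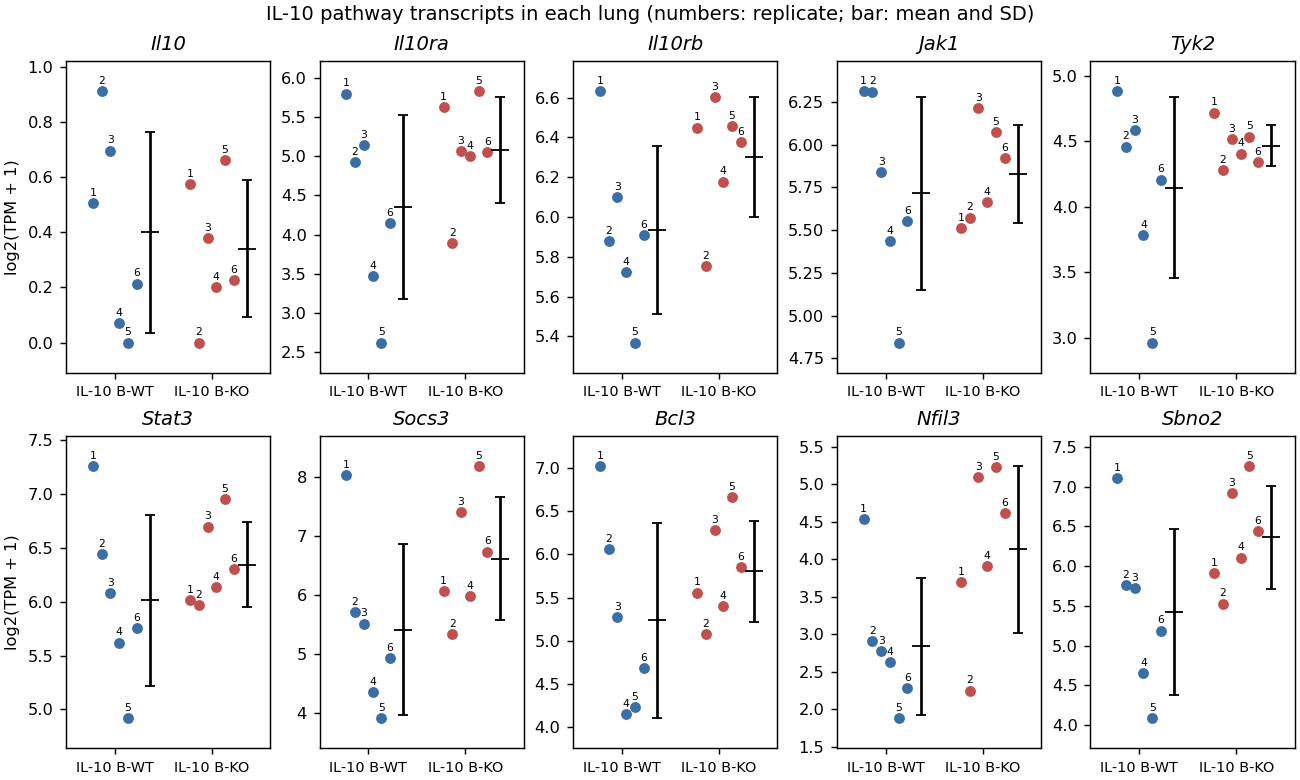
Level of each of the 10 transcripts in every lung, as log2(TPM + 1) on the vertical axis, with its own scale per panel; points are single lungs labelled with the replicate number, and the bar gives the mean and SD of 6 lungs. WT1 is the highest IL-10 B-WT lung for all 9 tested genes, and WT5 is the lowest of the 12 lungs for 8 of them.

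Of the response genes, Nfil3, Socs3 and Sbno2 had the largest log2 differences of the members and Bcl3 a smaller one than Il10ra. Socs3 (ENSMUSG00000053113, chromosome 11, 117966079 to 117970047, minus strand), whose product blocks signaling from gp130 but acts little on the IL-10 receptor, was at 259.6, 51.4, 44.6, 19.5, 14.1 and 29.5 TPM in WT1 to WT6 and at 66.1, 39.4, 168, 61.9, 289 and 105 TPM in KO1 to KO6. WT1 was exceeded only by KO5, while the other 5 IL-10 B-WT lungs were below every IL-10 B-KO lung but KO2. The means were 69.8 ± 94.1 and 122 ± 93.6 TPM (SD, n = 6 each), a log2 difference of 1.21 (standard error 0.64, 95% confidence interval -0.17 to 2.58, limma adjusted p = 0.448).
Nfil3 (ENSMUSG00000056749, chromosome 13, 52967209 to 52981073, minus strand), a repressor that restrains Il12b in macrophages exposed to IL-10, was at 22.2, 6.51, 5.84, 5.18, 2.69 and 3.87 TPM in WT1 to WT6 and at 11.9, 3.74, 33.1, 14.0, 36.3 and 23.4 TPM in KO1 to KO6. KO3, KO5 and KO6 were above every IL-10 B-WT lung, and KO2 was among the lowest of all lungs. The means were 7.72 ± 7.24 and 20.4 ± 12.8 TPM (SD, n = 6 each), a log2 difference of 1.29 (standard error 0.52, 95% confidence interval 0.18 to 2.41, limma unadjusted p = 0.0264, adjusted 0.350, exact permutation p = 0.0541).
Sbno2 (ENSMUSG00000035673, chromosome 10, 80056992 to 80105571, minus strand), a co-regulator that STAT3 induces, was at 137, 53.1, 51.7, 24.2, 16.0 and 35.4 TPM in WT1 to WT6 and at 59.1, 45.2, 119.9, 68.0, 152 and 86.1 TPM in KO1 to KO6. As for Socs3, WT1 lay below KO5 alone, and KO2 was the one IL-10 B-KO lung within the range of WT2 to WT6. The log2 difference was 0.94 (standard error 0.44, 95% confidence interval -0.02 to 1.90, limma adjusted p = 0.407).
Bcl3 (ENSMUSG00000053175, chromosome 7, 19808462 to 19822770, minus strand), an atypical IκB protein that holds repressive NF-κB dimers on inflammatory promoters, ranged from 16.8 TPM through a median of 31.2 TPM to 128.8 TPM in IL-10 B-WT mice and from 32.7 TPM through 51.4 TPM to 100.4 TPM in IL-10 B-KO lungs. WT1 was above all other lungs, and the log2 difference was 0.57 (standard error 0.46, limma adjusted p = 0.588). The log2 ratio of Socs3 to Stat3, the response relative to its factor within a lung, was -0.60 ± 0.71 for IL-10 B-WT against 0.27 ± 0.66 for IL-10 B-KO mice (SD, n = 6 per genotype), a difference of 0.87 (exact permutation p = 0.0563, adjusted over 3 ratios 0.169).

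Transcript levels per gene length can be ordered within these libraries. Over the 12 lungs the means were 95.7 ± 93.5 TPM for Socs3, 77.8 ± 34.1 TPM for Stat3, 70.9 ± 18.9 TPM for Il10rb and 70.7 ± 44.2 TPM for Sbno2 (SD, n = 12). They were followed by Jak1 (55.8 ± 15.9 TPM), Bcl3 (53.8 ± 34.3 TPM), Il10ra (30.4 ± 16.8 TPM), Tyk2 (19.7 ± 5.68 TPM), Nfil3 (14.1 ± 11.9 TPM) and Il10 (0.318 ± 0.280 TPM). Neighbours in this order lay closer together than the larger SD of the pair, except that every value of Il10 was below every value of Nfil3. The order differed between genotypes. In IL-10 B-WT lungs Stat3 (72.5 TPM) had a higher mean than Socs3 (69.8 TPM) and Jak1 (54.8 TPM) than Sbno2 (53.0 TPM), whereas in IL-10 B-KO lungs Socs3 (122 TPM) was followed by Sbno2 (88.3 TPM), Stat3 (83.1 TPM) and Il10rb (79.3 TPM). Socs3 was below Stat3 in 5 of 6 IL-10 B-WT lungs, the exception being WT1, and in 2 of 6 IL-10 B-KO lungs.

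Without WT1 and KO2, the same comparison over 5 lungs against 5 gave larger differences for all 9 genes. This direction follows from the choice of lungs, since WT1 was the highest IL-10 B-WT lung for 9 of 9 and KO2 the lowest IL-10 B-KO lung for 8 of 9. Both were left out after their values had been seen. The values over these 10 lungs are therefore a description of how far the 2 lungs weigh, and their p-values are not independent evidence of a difference. Adjusted p-values of at most 0.05 (limma) were then reached by 4 of 9 members, where 15.1% of 14762 genes tested reached it, and these 4 separated the genotypes without overlap, each higher in IL-10 B-KO lungs (9.1% of all genes in that direction). Nfil3 was at 23.8 ± 10.96 TPM against 4.82 ± 1.54 TPM (SD, n = 5 per genotype). Its log2 difference was 2.01 (standard error 0.32, limma adjusted p = 0.00237). Socs3 was at 138 ± 94.5 TPM against 31.8 ± 16.0 TPM (log2 difference 1.99, standard error 0.45, limma adjusted p = 0.0120). Sbno2 was at 97.0 ± 38.5 TPM against 36.1 ± 16.4 TPM (log2 difference 1.44, standard error 0.35, limma adjusted p = 0.0167). Il10rb was at 84.6 ± 8.97 TPM against 55.3 ± 10.1 TPM (log2 difference 0.62, standard error 0.17, limma adjusted p = 0.0274). Over all 12 lungs no member reached an exact permutation p of 0.05, and the lowest was 0.0541 for Nfil3. The other 5 did not pass, with log2 differences of 1.25 for Il10ra (limma adjusted p = 0.0632), 1.07 for Bcl3 (0.0670), 0.66 for Stat3 (0.129), 0.50 for Tyk2 (0.235) and 0.28 for Jak1 (0.475). The median of the 9 was 1.07, against 0.17 over all genes tested on these 10 lungs. The ratio of Socs3 to Stat3 differed by 1.33 on the log2 scale over these lungs, that of Il10ra to Il10rb by 0.64 and that of Il10ra to Ptprc by 0.09. With WT1 alone left out, 0 of 9 members passed the adjusted p (4.87% of 14943 genes did), and Socs3 had an adjusted p of 0.0554 at a log2 difference of 1.73. Leaving out WT5 alone, by contrast, lowered the log2 differences of all 9 from those over the 12 lungs. They were then 1.10 for Nfil3, 0.91 for Socs3, 0.67 for Sbno2, 0.38 for Il10ra and 0.37 for Bcl3. For Il10rb, Stat3, Tyk2 and Jak1 they were 0.25, 0.12, 0.08 and -0.06. The median without WT5 was 0.37, against -0.02 over all genes tested, and 0 of 9 passed the adjusted p.

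**Figure D2:**
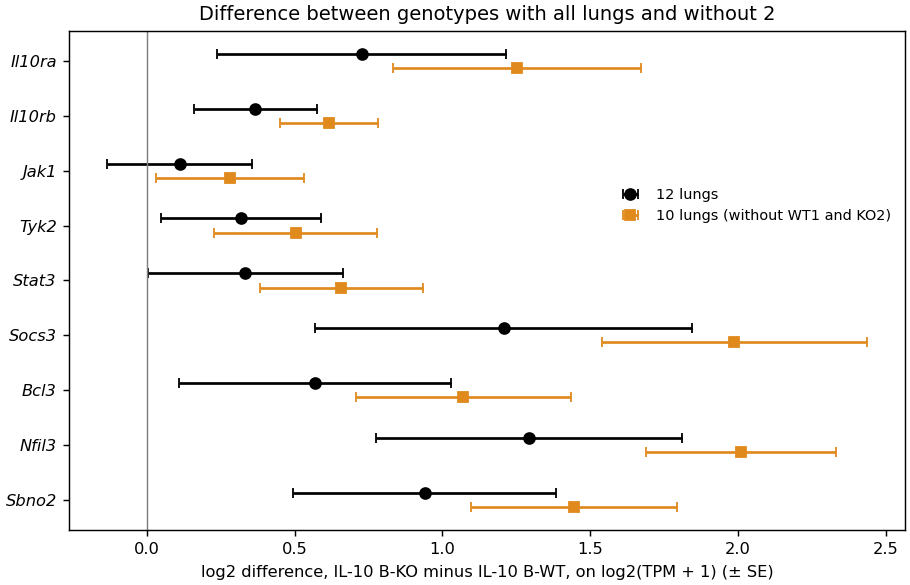
Log2 difference between IL-10 B-KO and IL-10 B-WT on log2(TPM + 1), with its standard error, for the 9 tested genes with all 12 lungs (circles) and without WT1 and KO2 (squares). Socs3 moves from 1.21 to 1.99 and Nfil3 from 1.29 to 2.01, while Jak1 stays the lowest in both.

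**Figure D3:**
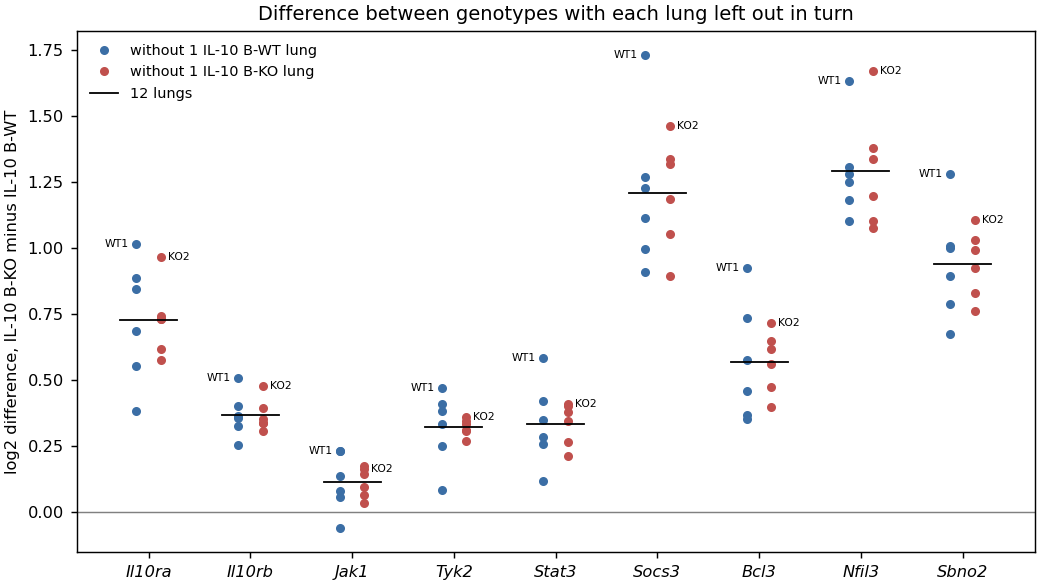
Log2 difference between genotypes (vertical axis) for the 9 tested genes with each of the 12 lungs left out in turn; points are colored by the genotype of the lung left out, those for WT1 and KO2 are labelled, and the line is the value with all lungs. Leaving out WT1 gives the highest value for 8 of the 9 genes, and for Nfil3 leaving out KO2 does.

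Variation between lungs differed among the members. The SD of log2(TPM + 1) over the 12 lungs, both genotypes together, was 1.36 for Socs3, above 96.9% of the genes tested, 1.18 for Nfil3 (95.5%), 0.99 for Il10ra (92.9%), 0.96 for Sbno2 (92.3%) and 0.91 for Bcl3 (91.2%). It was 0.62 for Stat3 (78.6%), 0.51 for Tyk2 (67.0%), 0.43 for Jak1 (55.4%) and 0.40 for Il10rb (48.9%), where the median gene had 0.40. The same lungs were high or low across members. WT1 was the highest IL-10 B-WT lung for 9 of 9 tested members and the highest of all 12 for 5. KO5 was the highest of all 12 for the other 4, KO2 was the lowest IL-10 B-KO lung for 8, and WT5 was the lowest of all 12 for 8. The share of all genes with the same lungs highest or lowest was not computed, so these counts do not set the members apart. Over the genes tested, the median TPM was highest in WT1 (15.24) and lowest in WT5 (6.98). It was 11.59 in KO2, the lowest of its genotype, and 13.3 in KO5, which was not the highest.

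**Figure D4:**
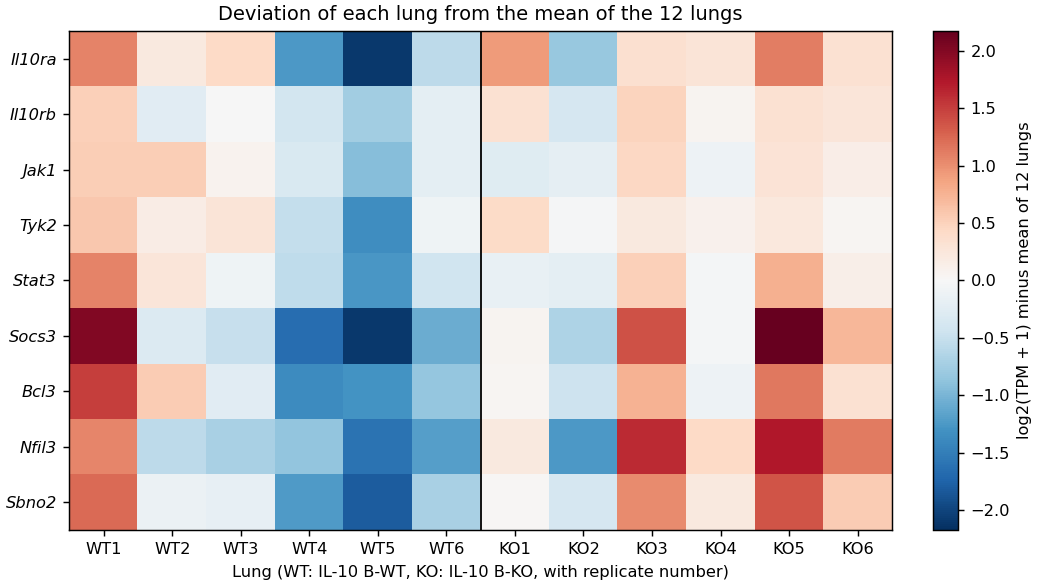
Deviation of log2(TPM + 1) in each lung (columns) from the mean of the 12 lungs for each tested gene (rows), red above and blue below the mean. WT1 and KO5 are red and WT5 is blue in every row, and the spread is widest for Socs3.

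Members were also compared pair by pair over the 12 lungs. Of 45 pairs, 41 had an adjusted permutation p of at most 0.05 for Pearson's r of log2(TPM + 1) (Benjamini-Hochberg over the 45 pairs), including all 36 pairs without Il10, for which r lay between 0.61 and 0.99 with a median of 0.86. The closest pair was Socs3 and Sbno2, with r = 0.985 (adjusted permutation p = 7.5e-05) and Spearman's rho = 0.993 (adjusted permutation p = 0.00015). It held without KO5 and WT1, the 2 lungs farthest from the median of Socs3 (r = 0.987), and within genotype, with r = 0.984 in IL-10 B-WT (exact permutation p = 0.00278, n = 6) and r = 0.989 in IL-10 B-KO lungs (exact permutation p = 0.00556, n = 6). Stat3 and Bcl3 followed with r = 0.955 (adjusted permutation p = 7.5e-05, rho = 0.972, adjusted permutation p = 0.00015). For this pair r was 0.966 without WT5 and WT1, 0.948 within IL-10 B-WT (exact permutation p = 0.00556, n = 6) and 0.968 within IL-10 B-KO lungs (exact permutation p = 0.00833, n = 6). Socs3 and Bcl3 had r = 0.954 (adjusted permutation p = 9e-05, rho = 0.944, adjusted permutation p = 0.000169). For these r was 0.923 without KO5 and WT1, 0.957 within IL-10 B-WT (exact permutation p = 0.00556, n = 6) and 0.998 within IL-10 B-KO lungs (exact permutation p = 0.00278, n = 6).
Il10 went with its pathway less closely by value. Of its 9 pairs, 5 had an adjusted p of at most 0.05, with r between 0.37 for Nfil3 and 0.73 for Il10ra, at levels under 1 TPM. Within IL-10 B-WT lungs the median r of the pairs without Il10 was 0.93 and the lowest 0.77, and within IL-10 B-KO lungs the median was 0.78 and the lowest 0.01, for Jak1 and Tyk2. With single lungs left out, between 33 pairs (without WT5) and 44 pairs passed. All genes of a lung share 1 library and 1 total, and the part of this in the correlations was not tested. The share of pairs that pass among all genes tested was not computed, so the counts of pairs do not set the members apart from other genes.

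**Figure D5:**
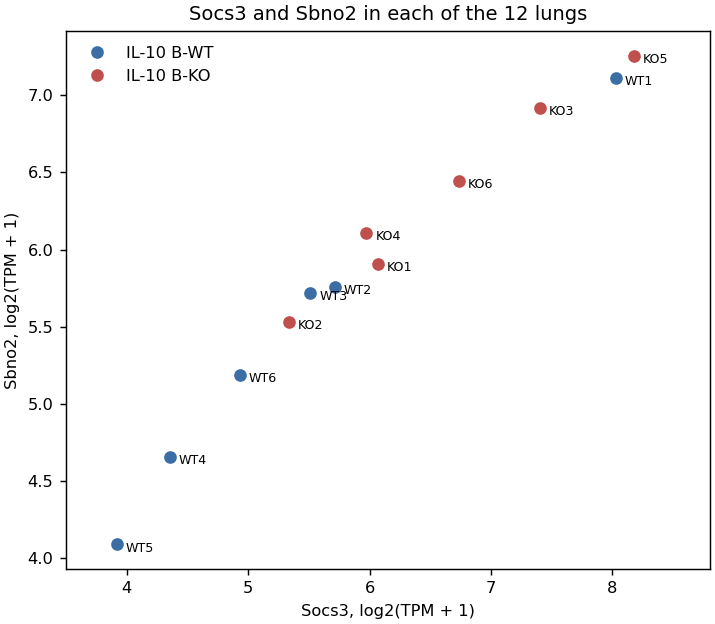
Level of Socs3 (horizontal axis) against Sbno2 (vertical axis), both as log2(TPM + 1), in each of the 12 lungs, colored by genotype and labelled with the replicate number. The lungs rank nearly alike for both genes from WT5 to KO5 (Spearman's rho 0.993), apart from KO1 and KO4, which change places, with WT1 next to KO5 at the upper end.

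Across the table, the genes whose levels followed each member most closely over the 12 lungs were found among 11154 genes with a symbol and a mean TPM of at least 5. For Socs3 these were Sbno2 (r = 0.985) and Myd88 (r = 0.984), the adaptor of Toll-like receptors. Il10ra was followed by Ly86 (r = 0.988), which encodes the partner of the LPS-receptor homologue RP105, and Cd52 (r = 0.985), a leukocyte surface protein. Il10rb was followed by Npc1 (r = 0.989), a lysosomal cholesterol transporter, and Csf1r (r = 0.985), the macrophage growth factor receptor. For Nfil3 they were Pkm (r = 0.989) and Pgam1 (r = 0.986), both enzymes of glycolysis. For Sbno2 they were Trim25 (r = 0.989), a ubiquitin ligase of antiviral sensing, and Cd44 (r = 0.989), an adhesion receptor of activated leukocytes. The nearest genes were Larp1 (r = 0.992) and 2610507B11Rik (r = 0.986) for Stat3, Erap1 (r = 0.977) and Spata13 (r = 0.974) for Bcl3. They were Lsm14a (r = 0.983) and Ccdc50 (r = 0.981) for Jak1, and Reep4 (r = 0.988) and Fbxl19 (r = 0.985) for Tyk2. These are the highest of many correlations over 12 lungs and are given as a description.

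Other genes of the pathway were counted in 9 lists of 100 genes in all, members not included, of which 85 were tested. None of the 85 passed an adjusted p of 0.05 over the 12 lungs (limma, 0.522% of all genes), and 36 passed without WT1 and KO2 (15.1% of 14762 genes). The calls over the 10 lungs given for these lists rest on the same choice of lungs as those of the members and are a description. Ligands of the IL-10 family were near 0: none of 6 was tested, Il20 and Ifnl2 were listed at 0 in all lungs, and Il24 reached the highest level, 4.30 TPM in 1 IL-10 B-KO lung. Of 5 other receptor chains of the family, Il20rb (3.61 ± 1.44 and 5.66 ± 1.20 TPM, SD, n = 6 each, log2 difference 0.57, limma unadjusted p = 0.0236, adjusted 0.343) and Ifnlr1 were tested.
Among 11 cytokines other than IL-10 that activate STAT3, 7 were tested and 6 had a higher mean in IL-10 B-KO lungs (63.2% of all genes). Unadjusted limma p-values were at most 0.05 for 2 of them (12.5% of all genes). Ebi3, a subunit of IL-27 and IL-35, was one (13.6 ± 17.2 and 27.9 ± 13.9 TPM, SD, n = 6 each, log2 difference 1.34, limma unadjusted p = 0.0411, adjusted 0.380). Osm, oncostatin M, was the other (1.88 ± 1.80 and 3.83 ± 1.98 TPM, log2 difference 0.83, limma unadjusted p = 0.0471, adjusted 0.388). Their receptors went both ways, with 4 of 10 higher and 6 lower. Csf3r, the G-CSF receptor of neutrophils, had a log2 difference of 1.48 (limma unadjusted p = 0.0245, adjusted 0.345), whereas Lifr (-0.81, unadjusted p = 4.17e-04, adjusted 0.0664), Lepr (-0.55, unadjusted p = 0.0299, adjusted 0.356) and Il11ra1 (-0.42, unadjusted p = 0.0215, adjusted 0.339) were lower. Over the 10 lungs Csf3r rose by 2.27 (limma adjusted p = 0.00210), and Lifr and Lepr fell by 0.99 and by 0.77 on the log2 scale (adjusted p = 0.00261 and 0.0275).
For the other JAKs and STATs, 7 of 8 had a higher mean in IL-10 B-KO lungs (63.2% of all genes). None had an unadjusted p of at most 0.05 (12.5% of all genes). Jak2, a kinase of several cytokine receptors, had a log2 difference of 0.48 over the 12 lungs (limma adjusted p over the 10 lungs 0.0147, at 0.99). Of the 16 other feedback regulators of the JAK-STAT pathway, 12 had a higher mean (63.2% of all genes). No unadjusted p was at most 0.05 (12.5% of all genes), and Ptpn6 (0.98) and Socs1 (0.93) had the largest log2 differences.

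Genes that macrophages induce on IL-10, apart from the members, were higher by mean in 8 of 10 (63.2% of all genes), with unadjusted p-values of at most 0.05 for 3, against 12.5% of all genes. Hmox1, heme oxygenase, was one of the 3 (85.0 ± 134 and 312 ± 239.8 TPM, SD, n = 6 each, log2 difference 2.36, limma unadjusted p = 0.0113, adjusted 0.298). The others were Il1r2, the decoy receptor for IL-1 (log2 difference 2.38, unadjusted p = 0.0103, adjusted 0.292), and Tnfrsf1b, a TNF receptor (1.66, unadjusted p = 0.0379, adjusted 0.376). Over the 10 lungs 5 of the 10 passed the adjusted p, all higher in IL-10 B-KO lungs. Among 18 other STAT3 target genes, 16 had a higher mean and 5 an unadjusted p of at most 0.05, namely Saa3 (log2 difference 4.74, limma unadjusted p = 0.0173, adjusted 0.328), Lcn2 (2.51, 0.0298, adjusted 0.356), Timp1 (2.42, 0.0426, adjusted 0.381), Lrg1 (1.36, 0.0156, adjusted 0.324) and Fos (1.07, 0.0447, adjusted 0.381). The first 4 encode proteins of the acute-phase and tissue-remodeling response. Over the 10 lungs 10 of 17 passed, with Saa3 at a log2 difference of 7.20 (adjusted p = 0.00162).
Genes that IL-10 is known to repress had the largest median log2 difference of the pathway lists, 1.24, with 14 of 15 higher by mean (63.2% of all genes) and 2 at an unadjusted p of at most 0.05 (12.5% of all genes). One was the chemokine Ccl2 (21.3 ± 42.0 and 88.5 ± 107 TPM, SD, n = 6 each, log2 difference 2.43, limma unadjusted p = 0.0429, adjusted 0.381). The other was Ccl5 (295.7 ± 197 and 587 ± 194 TPM, 1.18, unadjusted p = 0.00911, adjusted 0.281). Over the 12 lungs 0 of 15 passed the adjusted p, and over the 10 lungs 12 of 14 did, all higher in IL-10 B-KO lungs, where the share over all genes was 10.3% in this direction. Among the cell markers below, the median over the 12 lungs was larger for neutrophil (1.90) and for monocyte and interstitial macrophage markers (1.48). It was smaller for pan-leukocyte genes (0.73) and alveolar macrophage markers (0.33). Over the 10 lungs the median of the repressed genes was 2.41, against 2.54 for neutrophil and 2.18 for monocyte and interstitial macrophage markers. The part of cell composition in this list was not tested. Il12b, which NFIL3 restrains, did not pass the minimum TPM and was at 1.48 and 1.17 TPM on average.

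Most myeloid markers and the pan-leukocyte genes had higher means in IL-10 B-KO lungs, as the members did, whereas B cell markers were lower and T cell markers went both ways. Of all genes tested over the 12 lungs, 63.2% were higher by mean. An unadjusted p of at most 0.05 was reached by 6.83% as higher and 5.71% as lower, and an adjusted one by 0.522%. Over the 10 lungs 15.1% of all genes passed the adjusted p, 10.3% as higher. Of 8 neutrophil markers, 8 were higher by mean in IL-10 B-KO lungs, each with an unadjusted limma p of at most 0.05 and none with an adjusted one (over the 10 lungs 8 of 8 passed the adjusted p, with a median log2 difference of 2.54), and their summed level was 276 to 2516 TPM (median 741 TPM) for IL-10 B-WT and 1045 to 7648 TPM (median 3251 TPM) for IL-10 B-KO mice. Monocyte and interstitial macrophage markers were higher in 9 of 9, 8 with an unadjusted p of at most 0.05 and none with an adjusted one (8 of 9 over the 10 lungs, median 2.18), and summed to 189 to 2610 TPM and 453 to 3501 TPM. Alveolar macrophage markers were higher in 7 of 8 (76.8 to 632 TPM and 311 to 1625 TPM, 2 of 8 passing over the 10 lungs), and the pan-leukocyte genes in 3 of 3 (113 to 810.2 TPM and 270.3 to 807 TPM). B cell markers were lower in 6 of 6, each with an unadjusted p of at most 0.05, at 66.0 to 795 TPM and 5.21 to 74.5 TPM. Of these, Cd79a passed the adjusted p over the 12 lungs (log2 difference -4.16, limma adjusted p = 0.0222), and 5 of 6 did over the 10 lungs. T cell markers were higher in 3 and lower in 3 of 6 (21.3 to 172 TPM and 24.0 to 177 TPM). Endothelial markers were lower in 6 of 6 (1330 to 2623 TPM and 1363 to 2393 TPM). Epithelial markers were higher in 3 of 6. No marker of these lists was at 0 in all lungs. Csf3r and Il1r2 among the neutrophil markers, and Ptprc among the pan-leukocyte genes, are also counted in the pathway lists above. Among the members, WT1 was high and KO2 low as in the myeloid sums, and the part of cell composition in the differences of the members was not tested.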

How the data were processed

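Lung RNA of 12 mice was sequenced, 1 library per mouse. The authors deposited TPM (reads divided by gene length and scaled to a common library total) for 55414 genes, rounded to 2 decimals, 1 column per library without pooling. The submitters' processing notes name fastp, HISAT, RSEM and the build GRCm 38.p5, without versions, and the annotation release is not given in the sources used here. TPM keep no depth, so that counting error and detection limits are unknown and precision rests on the spread between lungs.

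Columns were matched to samples by title and grouped by the genotype label. Genotypes were compared with limma 3.58.1 (R 4.3.3, eBayes with the trend option) on log2(TPM + 1), which understates changes of low genes, with no covariate, in 15148 genes that reached 1 TPM in 6 or more libraries, adjusted by Benjamini-Hochberg. The limma code was run on simulated data. How often limma would call differences as small as those of the members, at their spread between lungs, was not tested. Single values and within-lung ratios were compared by two-sided exact permutation tests (924 arrangements, smallest p 0.00216), correlations by 100000 permutations. Positions are those of GENCODE M21 on GRCm38. SciPy 1.17.1, NumPy 2.4.6, matplotlib 3.10.9 and pandas 2.3.3 were run in Python 3.11.15.

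The members and the 18 gene lists (9 of pathway genes, 8 of cell markers and the members among them) were chosen with earlier results of these data known. Named were the members, the 2 genes closest to each, and pathway genes with an unadjusted p of at most 0.05 or the largest differences, of which some are not reported here. The alternatives were another pseudocount, other filters, rescaling, quantile normalization, median centring, array weights, a replicate block and each lung left out in turn. Leaving out WT1 and KO2 together was chosen after seeing the data. Leaving out KO2 and KO6 together, and rescaling without mitochondrial, globin and immunoglobulin genes, were also not planned beforehand. The alternatives for the pathway lists and for the pairs of members were not planned either.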

Additional observations from a re-analysis of the deposited data

Results flagged for a closer look

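In 26 groups of 6 values (the members and the within-lung ratios in each genotype), single lungs were tested for a gap to the nearest other lung by Dixon's criterion, which chance passes in about 1 in 20 groups. WT1 stood apart among the IL-10 B-WT lungs for Socs3 (259.64 TPM), for Nfil3 (22.23 TPM) and for Sbno2 (137.28 TPM). It also stood apart for the log2 ratio of Socs3 to Stat3, at 0.77, where the other 5 IL-10 B-WT lungs were below 0. The log2 ratio of Il10ra to Ptprc was -1.94 in WT2, a lung with 15.1% of its TPM in immunoglobulin transcripts, against -0.78 or more in the other IL-10 B-WT lungs.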

How the results depend on the processing

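No member passed the adjusted p of 0.05 in 22 of the 23 alternatives, and 4 did without WT1 and KO2. For all genes, 75 passed with an absolute log2 difference of at least 1, against 6 with no filter, 39 with quantile normalization, 36 with median centring, 318 with array quality weights, 42 without KO2 and KO6, 1430 without WT1 and KO2, and 15 (without KO5) to 576 (without WT1) with each lung left out. Pathway genes passing numbered 0 to 13 (without WT1) with each lung left out, 3 with array quality weights and 36 without WT1 and KO2. In exact permutation tests 0 members reached p of at most 0.05, against 0 to 4 (without WT1) with each lung left out and 6 without WT1 and KO2, and of the 3 ratios 0 passed, against 0 to 1 and 1. The share of all genes that reach this permutation p was not computed, so these counts cannot be set against a background. Rescaling without mitochondrial, globin and immunoglobulin genes moved the median of all genes from 0.10 to -0.05, with 8 of 9 members above it. Jak1 reversed to -0.048 with quantile normalization, -0.057 with that rescaling and -0.063 without WT5, and ranged from -0.063 to 0.23 with each lung left out. The ratio of Il10ra to Ptprc ranged from -0.21 (without WT2) to 0.094, with -0.061, -0.014 and -0.058 without KO1, KO4 and KO5. The cause of these changes was not tested. The replicate numbers did not pair the lungs (correlations of deviations from -0.29 to 0.05, 0 of 6 over 0.1, no lung matching its own number best both ways). With the replicate number as a block 45 genes and 0 members passed. Depth is unknown from TPM.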
